A study of Mus musculus with 10 samples.

Results

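The genes of the amyloid precursor family, tau and 2 apolipoproteins were examined in the hippocampus of genetically identical mice that differed in open field exploration. The 8 genes were App, Aplp1, Aplp2, Bace1, Psen2, Mapt, Apoe and Clu, out of 18193 genes that the array's annotation names. They were chosen by symbol: every probe set annotated with exactly 1 symbol equal to a member was kept, which gave 26 probe sets, and no probe set with several symbols included a member. Psen2 lay below a filter on low signals and was not in the main test for a group difference. None of the other 7 genes passed it. Described here are 3 features of their probe sets. The differences of probe sets of the same gene did not all have the same sign, though no contrast between them passed its test and the signs depended on the scaling of the arrays. Apoe had the widest difference between group means and also a wide spread inside each group. Apoe varied together with the brightest Clu probe set among mice of the same group, though the test no longer passed when most single arrays were left out.

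The amyloid precursor protein is a membrane protein of neurons that is cut by secretases, and the cut by the beta secretase followed by the gamma secretase releases the amyloid beta peptide. Tau binds and stabilizes microtubules in axons. Deposits of amyloid beta and separate deposits of tau define Alzheimer's disease. Apolipoprotein E and clusterin carry lipids between brain cells, are made mainly by astrocytes, and bind amyloid beta, and both genes hold common risk alleles for the disease in humans.

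Female Balb c/J mice, an inbred strain, were born on the same day and ranked on a composite of several open field measures taken over repeated sessions. The High Exploration group held 5 mice and the Low Exploration group held 5 mice from the ends of that ranking, with no treatment and no engineered allele in either group, and testing began at about 8 weeks of age per the study's methods. RNA of the whole hippocampus of each mouse was hybridised to its own Affymetrix Mouse 430_2.0 array, so n = 5 arrays per group throughout, and replicate numbers only name the arrays. Signals are given as log2 of the deposited MAS 5.0 signal, a scale on which 1 unit is a doubling. Such a signal reflects the probes as well as the transcript, so signals are compared between arrays and not between probe sets.

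The arrays were scaled by the authors to a common trimmed mean signal of 500, but their median log2 signals were 7.16 to 7.68 in the High Exploration group and 7.83 to 8.09 in the Low Exploration group. The labelling spike-in RNAs (poly-A controls) were at mean log2 signals of 11.8 to 13.1 and 13.6 to 14.7, without overlap, and the 3' to 5' log2 ratio of Gapdh was 3.96 to 5.21 and 3.49 to 4.06. All 5 hippocampal principal neuron markers that were listed passed the filter on low signals. Each marker gene was taken by its brightest probe set. Summed signals of the 7 neuron markers were 31679 to 60262 in the High Exploration group and 23037 to 30641 in the Low Exploration group. Of the other neuron marker probe sets past the filter, that of Nefl was higher, by 0.07. The rest were lower, from -1.48 for Camk2a to -0.14 for Syt1. Summed signals of the 7 astrocyte markers that passed the filter, out of 8, were 54777 to 76375 and 27233 to 43610. The mean log2 signals of these astrocyte markers overlapped, at 11.69 to 12.33 and 11.35 to 11.92. The brightest, Gja1, had group means of 15.13 and 13.88. Of the 7, 5 were higher in the High Exploration group and 2 lower, Slc1a2 by -0.24 and Slc1a3 by -0.16. The other astrocyte marker probe sets past the filter differed by -1.72, for Slc1a3, to 1.28, for Gja1. The 3 endothelial markers past the filter, out of 5, were all lower in the High Exploration group, with a median difference of -1.39. No gene of these 3 marker lists passed the test, and the part of the scaling, the spike-in shift or the marker levels in the results below was not tested.

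Promoter windows of 4 members are shown, since the 3 amyloid precursor family genes are compared with each other below and Apoe showed the widest difference. The windows run from 250 bases before to 50 bases after a transcript start annotated by RefSeq on GRCm38.p6, 300 bases in all. Those of Aplp1 and Aplp2 lie at the upstream end of the gene spans given below, and those of App and Apoe lie inside the spans. Capitals mark the GC box letters GGGCGG or their reverse complement, which were searched on both strands along with TATAAA and CCAAT.
App (chr16:85173658-85173957, minus strand): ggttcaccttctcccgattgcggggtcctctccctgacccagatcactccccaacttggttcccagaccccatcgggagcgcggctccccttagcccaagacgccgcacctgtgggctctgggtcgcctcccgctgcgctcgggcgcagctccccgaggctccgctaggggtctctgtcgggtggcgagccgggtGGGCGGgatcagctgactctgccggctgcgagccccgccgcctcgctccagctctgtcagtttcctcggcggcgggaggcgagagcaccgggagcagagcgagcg
Aplp1 (chr7:30445533-30445832, minus strand): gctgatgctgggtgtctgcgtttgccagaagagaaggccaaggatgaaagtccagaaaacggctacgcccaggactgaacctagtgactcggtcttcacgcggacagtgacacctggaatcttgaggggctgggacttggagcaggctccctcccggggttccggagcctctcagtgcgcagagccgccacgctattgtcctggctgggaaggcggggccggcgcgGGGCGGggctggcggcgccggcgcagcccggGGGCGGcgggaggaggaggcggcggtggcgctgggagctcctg
Aplp2 (chr9:31211799-31212098, minus strand): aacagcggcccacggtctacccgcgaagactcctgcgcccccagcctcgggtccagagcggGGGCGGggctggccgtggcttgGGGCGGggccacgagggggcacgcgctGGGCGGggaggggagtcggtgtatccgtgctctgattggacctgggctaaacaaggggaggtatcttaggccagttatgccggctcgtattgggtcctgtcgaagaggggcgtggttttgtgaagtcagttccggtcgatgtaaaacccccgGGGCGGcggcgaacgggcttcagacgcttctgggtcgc
Apoe (chr7:19699139-19699438, minus strand): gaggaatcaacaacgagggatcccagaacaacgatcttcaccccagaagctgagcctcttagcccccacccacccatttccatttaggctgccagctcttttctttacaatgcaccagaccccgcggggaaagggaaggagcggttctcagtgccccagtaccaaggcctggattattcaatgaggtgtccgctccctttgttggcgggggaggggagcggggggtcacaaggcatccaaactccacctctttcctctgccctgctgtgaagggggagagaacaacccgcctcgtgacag

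The App window held 1 GC box, the Aplp1 window 2 and the Aplp2 window 4, and the Aplp2 window also held 2 CCAAT runs. Their GC contents were 71.0%, 68.7% and 67.0%, in the upper part of the distribution over all 32851 windows, which had a median of 52.7% and a 90th percentile of 69.7%. GGGCGG was found in 35.7% of all windows, CCAAT in 37.4% and TATAAA in 13.6%. Of 3 windows listed for Apoe the one furthest upstream is shown, and none of the 3 held a GC box, while the second held 2 TATAAA runs. Psen2 has 2 windows, of which 1 held 4 GC boxes. Windows for Clu, Bace1 and Mapt were not used here. These matches describe letters in the windows and were not set against the signals.

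Of the 26 probe sets, 17 passed the filter, a mean signal over the 10 arrays above 219.9, the median of all 45037 probe sets that are not controls. These 17 covered 7 genes, and both Psen2 probe sets lay below. At an adjusted p under 0.05 (limma, Benjamini-Hochberg over all 22518 probe sets tested), 0 of the 17 were called, where 51 of 22518, or 0.226%, were called over the whole array. At an unadjusted p under 0.05 the count was 1 of 17, against 30.3% of all probe sets tested. No member probe set separated the groups without overlap, also counting those below the filter, whereas 8.93% of all probe sets tested did. High Exploration means were higher for 8 of the 17 and lower for 9, with a median difference of -0.07 against -0.32 over all probe sets tested. The standard errors of the members, with a median of 0.45 and a range of 0.31 to 1.09, were like those of all probe sets tested, whose median was 0.46. In whole tissue, fewer cells of a type and less RNA per cell cannot be told apart.

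**Figure D1:**
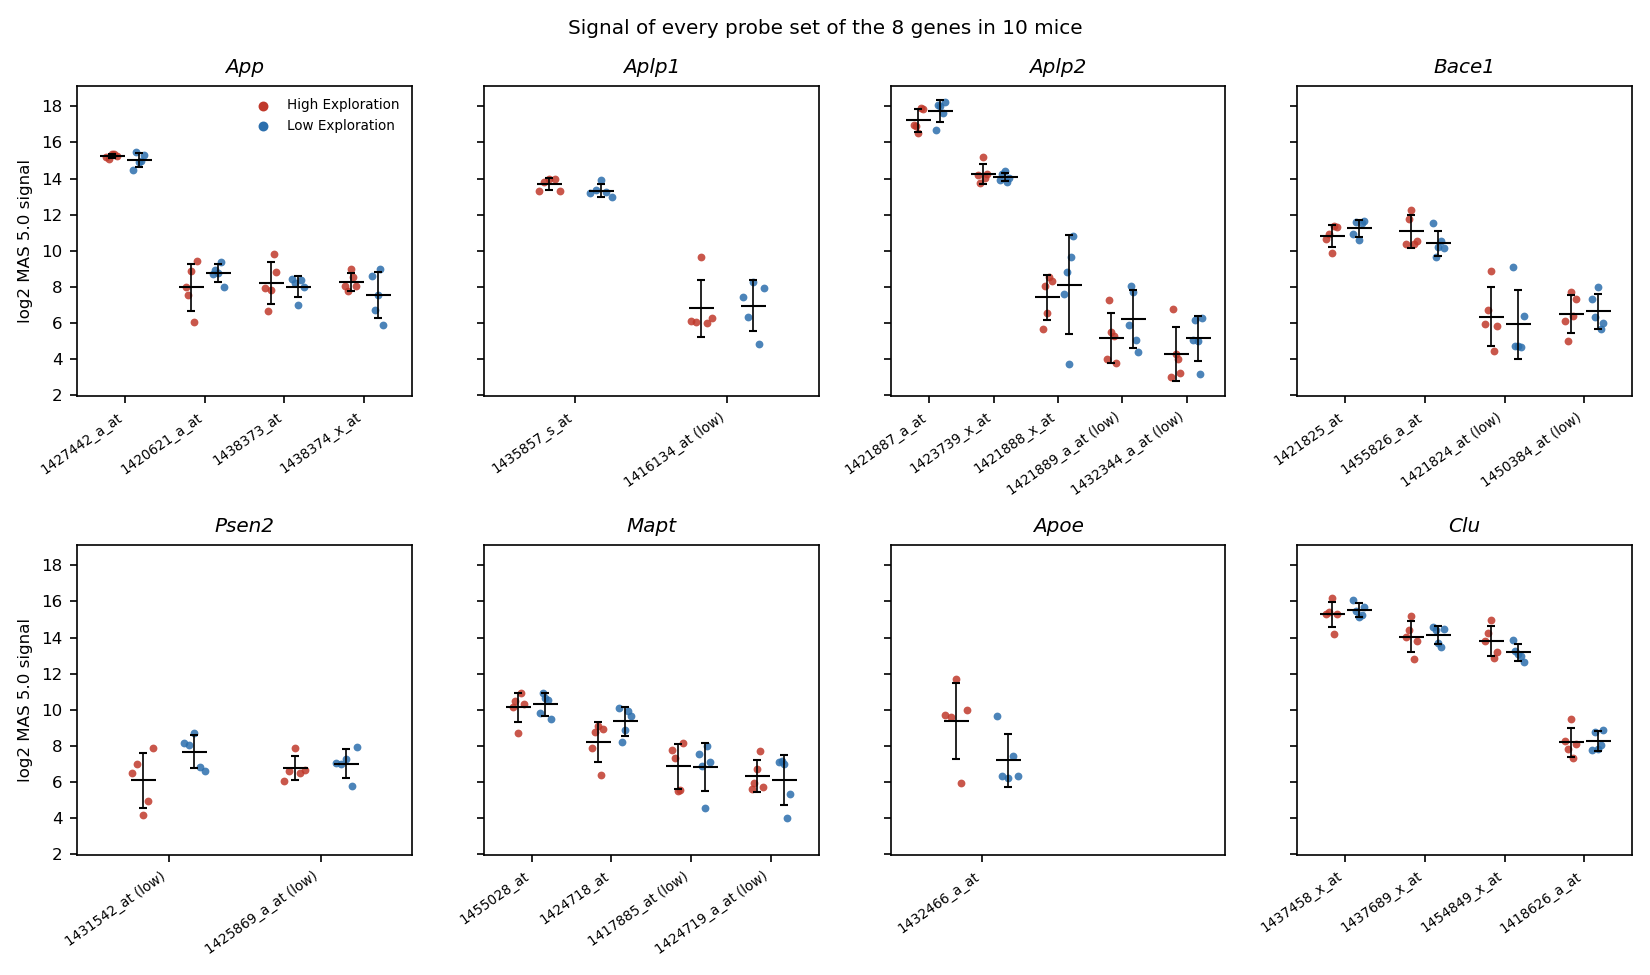
log2 MAS 5.0 signal of each of the 26 probe sets, 1 panel per gene, with 1 point per mouse, a horizontal bar at the group mean and a vertical bar of 1 SD (n = 5 per group); "low" marks the 9 probe sets below the filter. Red and blue points overlap in every pair, and the Apoe panel shows 1 High Exploration mouse at 5.94 and 1 Low Exploration mouse at 9.67, apart from the rest of their groups.

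App, on chr16:84952666-85175255 of GRCm38.p6, encodes the amyloid precursor protein itself and is read by 4 probe sets. The brightest, 1427442_a_at, was at 15.19, 15.07, 15.33, 15.35 and 15.28 in the 5 High Exploration mice and at 14.45, 15.48, 14.91, 14.99 and 15.30 in the 5 Low Exploration mice. The High Exploration values were tightly grouped and lay within the Low Exploration range. The means were 15.24 ± 0.12 and 15.03 ± 0.39 (SD, n = 5 each), a difference of 0.22 with a 95% interval of -0.45 to 0.88 (limma adjusted p = 0.642). The other 3 App probe sets did not share a direction. Probe set 1420621_a_at differed by -0.77 (SE 0.56, limma adjusted p = 0.350), 1438373_at by 0.21 (SE 0.54, adjusted p = 0.810) and 1438374_x_at by 0.73 (SE 0.55, adjusted p = 0.375).

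Among the arrays, High Exploration replicate 4 lay at opposite ends of its group for App 1420621_a_at and 1438373_at. It was the lowest High Exploration array for 1420621_a_at, at 6.07 against 7.56 to 9.42 in the others, and the highest for 1438373_at, at 9.81 against 6.68 to 8.84. Across the 10 arrays, centred on each array's median and with group means removed, the brightest App probe set correlated with the other 3 at Pearson's r of -0.05, -0.05 and -0.39, given as a description. The suffix a_at marks probes that match several transcripts of the gene, and x_at marks probes that can also match other sequences.

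Aplp1, on chr7:30434980-30445582, encodes the family member found mainly in neurons and has 2 probe sets. The tested one, 1435857_s_at, was at 13.34, 13.79, 14.00, 13.99 and 13.31 in the High Exploration group and at 13.20, 13.35, 13.90, 13.26 and 12.97 in the Low Exploration group. The highest Low Exploration mouse, replicate 3, lay above 3 of the 5 High Exploration mice, and the groups overlapped. The difference was 0.35 with a 95% interval of -0.34 to 1.04 (limma adjusted p = 0.461). The dim probe set 1416134_at was at 5.99 to 6.28 in 4 High Exploration mice and at 9.63 in replicate 3, and its Low Exploration values ran from 4.82 to 8.30.

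Aplp2, on chr9:31149557-31211848, encodes the most widely expressed relative of the precursor protein and has 5 probe sets. Probe set 1421887_a_at was at 16.94, 16.91, 16.51, 17.92 and 17.86 in the High Exploration group and at 16.68, 18.08, 18.02, 17.63 and 18.21 in the Low Exploration group. Both groups held arrays near 17 and near 18, with 4 of 5 Low Exploration mice in the upper range against 2 of 5 High Exploration mice. The difference was -0.50 with a 95% interval of -1.39 to 0.40 (limma adjusted p = 0.416). Probe set 1423739_x_at pointed the other way, by 0.19 (SE 0.34, adjusted p = 0.721). Its High Exploration values were 13.73 to 14.23 apart from replicate 3 at 15.21, and without that array the difference was -0.04. The third tested probe set, 1421888_x_at, had the widest standard error of all 17 member probe sets, 1.09, with Low Exploration values from 3.73 to 10.82 and a difference of -0.70 (adjusted p = 0.675). The 2 probe sets below the filter differed by -1.05 and -0.88.

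Bace1, on chr9:45838545-45862484, encodes the beta secretase that makes the first cut toward amyloid beta. Its probe set with the highest mean signal, 1421825_at, was at 10.63, 10.94, 9.86, 11.36 and 11.31 in the High Exploration group and at 10.93, 11.58, 10.60, 11.56 and 11.62 in the Low Exploration group. The second, 1455826_a_at, was at 10.37, 11.77, 12.29, 10.38 and 10.55 and at 11.53, 9.67, 10.19, 10.54 and 10.16. The 2 probe sets did not order the High Exploration mice alike, and replicate 3 was lowest for the first and highest for the second. The differences were -0.44 (95% interval -1.27 to 0.39, limma adjusted p = 0.441) and 0.65 (95% interval -0.40 to 1.70, adjusted p = 0.362). The 2 dim Bace1 probe sets differed by 0.43 and -0.15.

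Psen2, on chr1:180227004-180263467, encodes presenilin 2, a catalytic subunit of the gamma secretase, and both of its probe sets lay below the filter. Probe set 1431542_at was at 6.52, 6.99, 4.16, 4.96 and 7.87 in the High Exploration group and at 8.18, 8.05, 8.73, 6.81 and 6.62 in the Low Exploration group. The lowest 2 arrays were both High Exploration mice and the highest 3 were all Low Exploration mice, with overlap between 6.62 and 7.87. The difference was -1.58, and when all probe sets were tested without a filter its adjusted p was 0.226 (limma). The other probe set, 1425869_a_at, differed by -0.27.

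Mapt, on chr11:104229409-104332090, encodes tau. Probe set 1455028_at was at 10.18, 10.49, 8.74, 10.91 and 10.35 in the High Exploration group and at 9.82, 10.94, 10.68, 10.55 and 9.49 in the Low Exploration group. High Exploration replicate 3 was the lowest of all 10 arrays, the other 4 High Exploration values lay inside the Low Exploration range, and the difference was -0.16 with a 95% interval of -1.15 to 0.82 (limma adjusted p = 0.823). Without that array it was 0.18. Probe set 1424718_at was at 7.86, 8.76, 9.09, 6.40 and 8.94 against 10.11, 8.23, 8.87, 9.94 and 9.66. Here 3 Low Exploration mice lay above all High Exploration mice. The difference of -1.15 had a 95% interval of -2.35 to 0.05 and an adjusted p of 0.180 (limma), the second smallest among the 17. The 2 dim Mapt probe sets differed by 0.03 and 0.23.

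Apoe, on chr7:19696244-19701310, encodes apolipoprotein E, the main lipid carrier secreted in the brain, and is read by a single probe set, 1432466_a_at. It was at 9.69, 9.62, 11.71, 5.94 and 10.00 in the High Exploration group and at 9.67, 6.34, 6.21, 7.45 and 6.36 in the Low Exploration group. In each group 4 arrays lay on 1 side and the remaining array on the other: High Exploration replicate 4 was the lowest of all 10 arrays, and Low Exploration replicate 1 lay among the High Exploration values. The means were 9.39 ± 2.11 and 7.21 ± 1.47 (SD, n = 5 each), a difference of 2.19 with a standard error of 0.95 and a 95% interval of 0.13 to 4.24. The filter level of 219.9 is 7.78 on this scale, and 1 High Exploration array, 4 Low Exploration arrays and the Low Exploration mean lay below it, so the size of the difference rests on dim signals. The unadjusted p was 0.0388 and the adjusted p 0.146 (limma). Over all alternative settings the adjusted p ran from 0.0724 to 0.264 and the difference from 1.61, without High Exploration replicate 3, to 3.05, without High Exploration replicate 4. The direction was the same in every one of these settings. With 1 probe set there was no second reading of this gene.

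Clu, on chr14:65968483-65981548, encodes clusterin, also called apolipoprotein J. Its brightest probe set, 1437458_x_at, was at 15.31, 15.40, 16.17, 14.21 and 15.33 in the High Exploration group and at 16.10, 15.47, 15.14, 15.27 and 15.71 in the Low Exploration group. The highest and the lowest array were both High Exploration mice, and the difference was -0.26 with a 95% interval of -1.10 to 0.59 (limma adjusted p = 0.666). Probe set 1437689_x_at differed by -0.07 (adjusted p = 0.922) and 1418626_a_at by -0.07 (adjusted p = 0.927). Probe set 1454849_x_at was at 13.78, 14.27, 14.97, 12.85 and 13.20 against 13.89, 13.28, 13.10, 12.99 and 12.65, with a difference of 0.64 (95% interval -0.31 to 1.58, adjusted p = 0.325). High Exploration replicate 3 was the highest and replicate 4 the lowest of the High Exploration arrays on all 4 Clu probe sets.

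**Figure D2:**
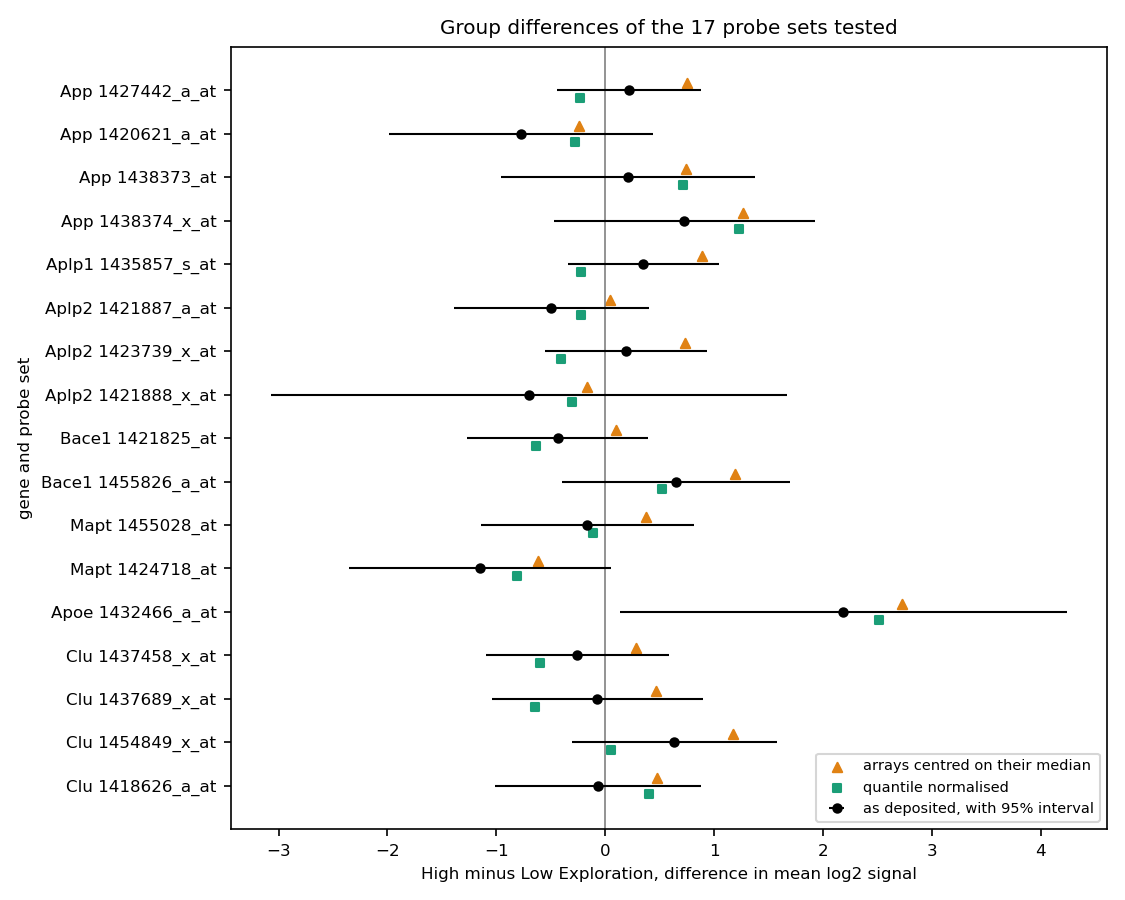
Difference in mean log2 signal, High minus Low Exploration, for the 17 member probe sets tested, with circles and 95% intervals for the signals as deposited, triangles after each array was centred on its median and squares after quantile normalisation. Apoe is the only probe set whose interval lies above 0 (0.13 to 4.24), and the position of most other probe sets relative to 0 depends on the scaling.

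The direction of small differences depended on how the arrays were scaled. Centring each array on its median moved the median of all probe sets tested from -0.32 to 0.21 and that of the 17 member probe sets from -0.07 to 0.47, with 14 of 17 then higher in the High Exploration group. Setting the hybridisation controls equal gave 14 of 17 and medians of 0.28 and 0.54. Quantile normalisation gave 6 of 17 higher and medians of -0.03 and -0.23. The smallest adjusted p among the members was 0.0897, 0.102 and 0.158 under these 3 scalings (limma). App 1420621_a_at and Mapt 1424718_at, both lower in the High Exploration group, and Apoe 1432466_a_at, App 1438373_at, App 1438374_x_at, Bace1 1455826_a_at and Clu 1454849_x_at, all higher, kept their direction under the 3 scalings, as did Aplp2 1421888_x_at, which was lower. The other 9 tested probe sets did not.

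A ratio between 2 probe sets on the same array is free of that array's scaling constant. It is not free of a difference between arrays in the spread of log2 signals, whose part was not tested. The 2 brightest tested probe sets of each gene were also compared in this way. This was possible for 5 genes. The log2 ratio differed between groups by 0.99 for App, -0.69 for Aplp2, -1.09 for Bace1, 0.99 for Mapt and -0.18 for Clu, and none passed (exact two-sided permutation test, unadjusted p = 0.159 to 0.365, adjusted p = 0.365 for each). After quantile normalisation these differences were 0.053 for App, 0.19 for Aplp2, -1.155 for Bace1, 0.70 for Mapt and 0.041 for Clu. The smallest p that 252 assignments of 5 against 5 arrays allow was 0.00794. When all 17 pairs of tested probe sets of the same gene were compared, which was added after the values were seen, the smallest p belonged to Clu, where 1437458_x_at minus 1454849_x_at was 1.13 to 2.13 in the High Exploration group and 2.04 to 3.06 in the Low Exploration group. Only 2 arrays lay in the overlap of these ranges. The difference of -0.89 had an exact permutation p of 0.0159, or 0.202 adjusted over the 17 pairs.

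Ratios between members were compared in 7 pairs, each gene by its probe set with the highest mean, and 0 of 7 passed after adjustment. The App to Aplp2 ratio was -1.75, -1.85, -1.18, -2.57 and -2.58 in the High Exploration group and -2.23, -2.60, -3.11, -2.64 and -2.91 in the Low Exploration group. The 3 highest values were High Exploration mice, and the difference was 0.71 (exact permutation p = 0.0476, adjusted p = 0.148), or -0.0090 after quantile normalisation. The App to Bace1 ratio, between the precursor and its beta secretase, differed by 0.65 (exact p = 0.0635, adjusted p = 0.148), or -0.014 by the mean of each gene's probe sets. That of Aplp1 to Aplp2 differed by 0.85 (exact p = 0.103, adjusted p = 0.156), or -0.0051 after quantile normalisation, and that of App to Psen2 by 1.80 (exact p = 0.111, adjusted p = 0.156). After quantile normalisation the group differences of the probe sets in the App to Psen2 ratio were -0.23 for App and -1.01 for Psen2. App to Aplp1, at -0.13 (exact p = 0.659), and App to Mapt, at 0.38 (exact p = 0.484) or -0.12 after quantile normalisation, had the largest p-values of the 7.

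The Apoe to Clu ratio had the smallest p of the 7. It was -5.62, -5.78, -4.46, -8.27 and -5.33 in the High Exploration group and -6.43, -9.13, -8.93, -7.82 and -9.35 in the Low Exploration group. High Exploration replicate 4 lay among the Low Exploration values, and 4 High Exploration arrays lay above all Low Exploration arrays. The means were -5.89 ± 1.42 and -8.33 ± 1.22 (SD, n = 5 each), and the difference of 2.44 had an exact permutation p of 0.0238 and an adjusted p of 0.148.

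**Figure D3:**
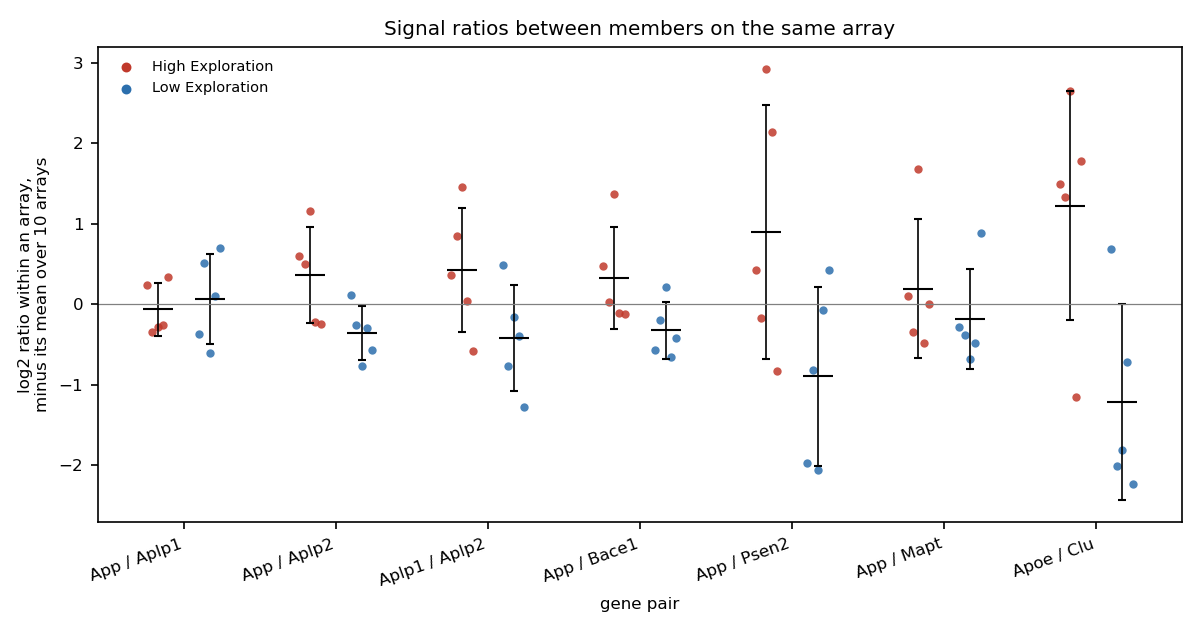
log2 ratio of the signals of 2 members on the same array, minus the mean of that ratio over the 10 arrays, for 7 gene pairs, with 1 point per mouse, group means and bars of 1 SD (n = 5 per group). In the Apoe / Clu column 4 of 5 High Exploration mice lie above every Low Exploration mouse, and no pair passed the test after adjustment.

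How the members varied among mice of the same group was examined for the same 7 pairs over 10 arrays, after each array was centred on its median and the group means were removed. Apoe and Clu varied together, with Pearson's r = 0.906 (exact permutation within groups over 14400 rearrangements, p = 0.00507, adjusted p = 0.0355 over the 7 pairs) and Spearman's rho = 0.879 (exact permutation p = 0.000972). Pearson's r was 0.964 among the 5 High Exploration mice and 0.778 among the 5 Low Exploration mice, as a description. Without the 2 arrays farthest from the median Apoe value r was 0.779. As deposited, Apoe lay below the filter level of 7.78 on 1 High Exploration array and 4 Low Exploration arrays. The arrays at the ends were High Exploration replicate 4, lowest in both genes, and High Exploration replicate 3 and Low Exploration replicate 1, highest in both. Leaving out 1 array at a time kept r between 0.771 and 0.931, but the adjusted p then lay above 0.05 for 7 of the 10 arrays, High Exploration replicates 1 to 5 and Low Exploration replicates 1 and 3, where it was 0.0608 to 0.177. Without centring r was 0.911 (adjusted p = 0.0384) and after quantile normalisation 0.830 (adjusted p = 0.0440), both by the exact permutation test.

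**Figure D4:**
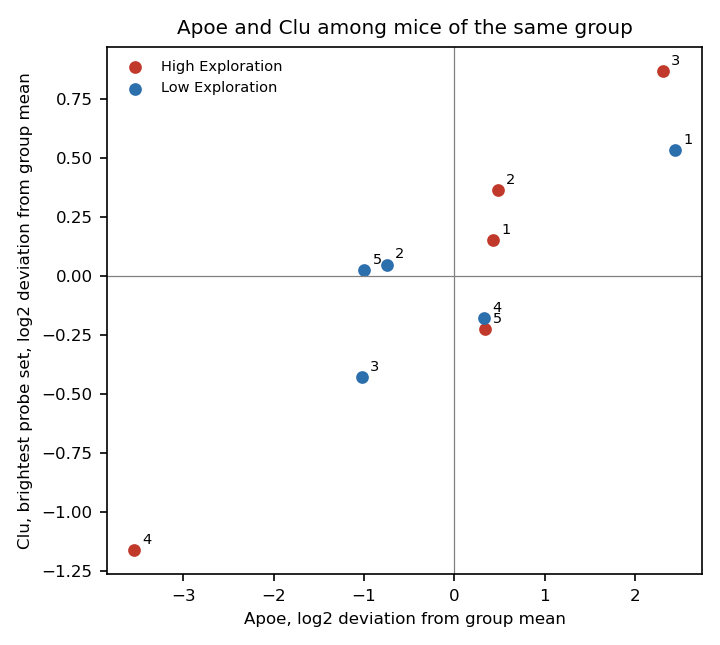
Deviation of Apoe (x axis) and Clu (y axis) log2 signal from the group mean in each mouse, after centring each array on its median; numbers name the replicates and colours the groups. The points lie along a rising line (r = 0.906, n = 10) with High Exploration replicate 4 at the lower end and High Exploration replicate 3 and Low Exploration replicate 1 at the upper end.

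Further relations of Apoe and Clu were examined after this was seen, 13 in all, and none passed over these 13 (exact permutation, adjusted p = 0.111 to 0.905). Apoe correlated with the other Clu probe sets at r = 0.773 for 1454849_x_at, 0.736 for 1437689_x_at and 0.439 for 1418626_a_at, all in the same direction. With the mean of the astrocyte markers, a cell type that makes both proteins, r was -0.05 for Apoe and 0.04 for Clu. It was 0.20 and 0.31 with the neuron markers, 0.29 and 0.19 with the choroid plexus markers, 0.33 and 0.27 with the log2 difference of both spike-in classes, poly-A minus hybridisation, and 0.37 and 0.44 with the Gapdh 3' to 5' ratio. Spearman's rho with the Gapdh ratio was 0.55 for Apoe and 0.56 for Clu (exact permutation, unadjusted p = 0.117 and 0.130). Ranked by r with Apoe, Clu 1437458_x_at ranked 42 of 22517 other probe sets tested, at 0.187% from the top, and the other 3 Clu probe sets stood at 3.62%, 5.37% and 22.8%.

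The other 6 pairs did not pass (adjusted p = 0.638 to 0.866, exact permutation). App and Aplp2 had r = 0.526 (rho = 0.152), which turned to -0.415 without the 2 arrays farthest from the median of App and to -0.07 without Low Exploration replicate 1 alone. After quantile normalisation the same pair had r = 0.866 (adjusted p = 0.00583). App and Bace1 had r = 0.374, App and Mapt 0.283, App and Aplp1 0.216, App and Psen2 -0.235 and Aplp1 and Aplp2 -0.06. The probe sets whose pattern was most like that of App 1427442_a_at over the 10 arrays read Tox4 (r = 0.949), Inka2 (r = 0.949), Dhrs7 (r = 0.927), Otud7b (r = 0.920) and Tomm70a (r = 0.918). They are the highest r picked from all tested probe sets with 1 symbol outside the members. High values can come from such a search alone, and they are given as a description without a test. The closest member was Clu 1418626_a_at at 0.552.

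Other genes of these pathways were read from 6 lists that hold 67 genes. Of these, 61 had a probe set with their symbol alone, 48 passed the filter, and each was taken by its brightest probe set. None was called after adjustment (limma, smallest adjusted p = 0.0696). At an unadjusted p under 0.05, 9 were higher and 4 lower in the High Exploration group. Among the 22518 probe sets tested 2154 were higher and 4669 lower. That background counts every probe set and not the brightest of each gene, so the balance of directions cannot be compared directly. The median difference of the 48 was -0.08, or 0.45 after centring each array on its median. For 2 of the 48, Itm2b and Gsk3b, the groups did not overlap, where 8.93% of all probe sets tested had no overlap.

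The secretases and their partners, which cut the precursor protein, had 6 of 10 genes past the filter with a median difference of 0.28, or 0.81 after median centring and 0.01 after quantile normalisation. Aph1a, a gamma secretase subunit, differed by -1.33 (SE 0.45, limma adjusted p = 0.0899) and Adam17, an alpha secretase, by -1.67 (SE 0.53, adjusted p = 0.0813). Without High Exploration replicate 5 Adam17 passed at an adjusted p of 0.0402 (limma), where 1019 of all probe sets passed, and its other probe sets differed by -0.51 and 0.04. The High Exploration mean of Adam17, 6.78, lay below the filter level of 7.78, and its other probe sets did not pass the filter. With array weights Aph1a, Itm2b and Gsk3b passed, at adjusted p of 0.0477, 0.0473 and 0.0416 (limma), where 9.81% of all probe sets tested passed. Enzymes that degrade amyloid beta and proteins that bind the precursor had 9 of 12 past the filter and a median of 0.26. Itm2b, whose protein binds the precursor, was at 15.05 to 15.75 in the High Exploration group and 13.81 to 14.89 in the Low Exploration group. The groups did not overlap, and the difference of 1.09 had an adjusted p of 0.0768 (SE 0.33), while the other 2 Itm2b probe sets differed by 0.67 and -0.08. Apba1, an adaptor of the precursor's tail, differed by -1.13 (adjusted p = 0.251).

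Genes for the endocytosis and sorting of the precursor had 7 of 8 past the filter and a median of -0.20, which was 0.34 after median centring, 0.17 after quantile normalisation and 0.41 with equal hybridisation controls. Bin1, a membrane curving protein, differed by -1.30 (limma adjusted p = 0.108) and Vps35, the core of the retromer, by 1.17 (adjusted p = 0.122), while the other Vps35 probe set differed by -0.47. The High Exploration mean of Bin1, 7.75, lay just below the filter level of 7.78. Lipoprotein receptors and lipid carriers, the partners of Apoe and Clu, had 9 of 16 past the filter and a median of 0.26. Lrpap1, a chaperone of lipoprotein receptors, differed by 1.40 (adjusted p = 0.119) and Lpl, lipoprotein lipase, by 0.93 (adjusted p = 0.117).

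The kinases that phosphorylate tau had 10 of 13 past the filter and the lowest median of the 6 lists, -0.51, with 9 of the 10 lower in the High Exploration group. That list's median was 0.03 after centring on the array median, 0.10 with equal hybridisation controls and -0.63 after quantile normalisation. Gsk3b was at 8.98 to 9.80 in the High Exploration group and 9.85 to 10.99 in the Low Exploration group, without overlap, and its difference of -1.17 had an adjusted p of 0.0696 (SE 0.33, limma). Its other 5 probe sets differed by 0.53, -0.84, 0.05, -1.15 and -2.21. Mark1, which detaches tau from microtubules, differed by -0.67 (adjusted p = 0.263), and its other 4 probe sets by -0.40 to 1.12. Other microtubule binding proteins had 7 of 8 past the filter and the highest median, 0.67. Map2, the dendritic counterpart of tau, differed by 0.90 (adjusted p = 0.127) and Stmn1, a protein that destabilizes microtubules, by 1.00 (adjusted p = 0.130). Other probe sets went the other way, at -1.53 for 1 of the other 3 of Map2 and at -0.91 for the other 1 of Stmn1.

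**Figure D5:**
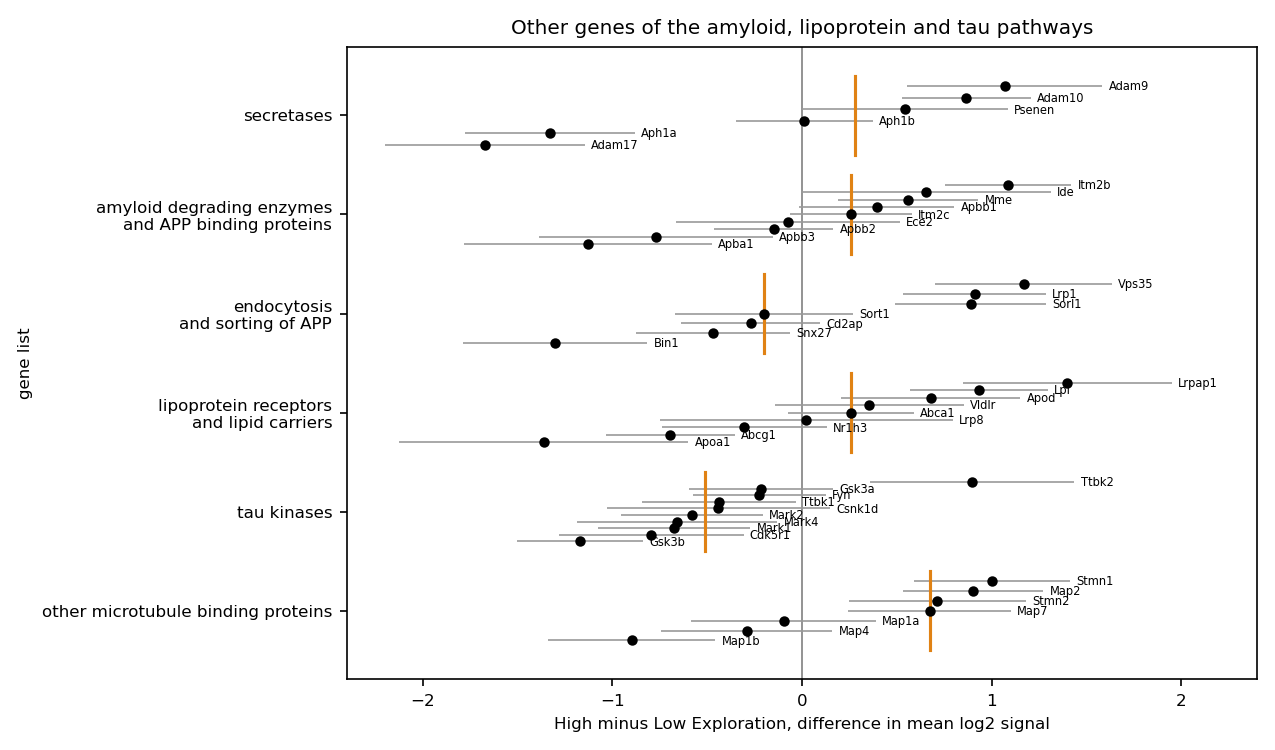
Difference in mean log2 signal, High minus Low Exploration, for 48 other genes of the pathways in 6 lists, each by its brightest probe set, with bars of 1 SE and an orange line at each list's median. The medians run from -0.51 for the tau kinases to 0.67 for the other microtubule binding proteins, and no gene passed the test after adjustment.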

How the data were processed

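RNA of 10 hippocampi, 5 per group, was measured on 1 array each. Per the labels and the methods, the authors summarised the arrays by MAS 5.0, which has no step that equalises distributions, and deposited linear signal intensities for 45101 probe sets, with 1 trimmed mean for every array (500, both 2% tails left out). The labels give the standard labelling protocol and the methods a second amplification round, and which was used here was not settled. The methods name Affymetrix Expression Console as the program that ran MAS 5.0, and a genome build is not given in the sources used here.

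The 8 members and all gene lists were chosen with earlier results of these data known. Genes were named from the platform annotation: 34945 probe sets had 1 symbol, 932 several and 9160 none, and 34741 were matched by Entrez identifier, with 0 symbols changed. After 64 controls were left out, log2 intensities as deposited were fitted with limma 3.58.1 (R 4.3.3, lmFit and eBayes) for probe sets with a mean signal above 219.9, and p-values were adjusted by Benjamini-Hochberg over all 22518. Ratios on the same array and correlations were tested by exact permutation in Python 3.11.15. All probe sets of the members were named, and of each pathway list the 2 genes with the smallest p, plus the 5 genes whose pattern was most like App. The limma step was tested on simulated data. Alternatives were no filter, a filter on mean log2 signal, median centring, quantile normalisation, equal hybridisation controls (18 probe sets), a pseudocount of 23.0, array weights, the mean of a gene's probe sets, and leaving out each array. The number of arrays limits the precision. The replicates are separate mice.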

Additional observations from a re-analysis of the deposited data

Results flagged for a closer look

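In 52 groups of 5 values, the 26 member probe sets in both groups, 1 value stood apart from the other 4 by the gap relative to the group's range, where chance gives about 1 in 20 groups, or 2.6 of 52. It was Aplp1 1416134_at in High Exploration replicate 3, at a log2 signal of 9.63 against 6.28 for the nearest array, a gap of 0.922 of the range. This probe set lay below the filter on low signals, and the tested Aplp1 probe set was at 14.00 on the same array, next to 13.99 on replicate 4.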

How the results depend on the processing

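No member probe set was called under any alternative, while the calls over all probe sets ran from 51 to 32 without a filter, 3 with a filter on mean log2 signal (added after the data were seen), 3, 2 and 0 with median centring, quantile normalisation and equal hybridisation controls, 408 with a pseudocount and 2208 with array weights, and from 0 without Low Exploration replicate 3 to 1019 without High Exploration replicate 5. The cause was not tested. Of the comparisons named in the text, 506 of the values with 1 array left out were counted as unchanged. Another 18 were reversed, 8 moved, 7 weaker and 1 stronger. Among the other alternatives 244 were unchanged, 24 reversed, 4 moved and 4 stronger. A median difference could change sign and still count as unchanged. That of the member probe sets was -0.07 with all arrays. It ran from -0.10, without Low Exploration replicate 4, to 0.15, without High Exploration replicate 4.

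The median difference of the members moved to 0.47 with median centring and 0.54 with equal hybridisation controls. In the same order of these 2 scalings, differences turned to 0.040 and 0.11 for Aplp2 1421887_a_at, 0.10 and 0.17 for Bace1 1421825_at, 0.37 and 0.44 for Mapt 1455028_at, 0.28 and 0.35 for Clu 1437458_x_at, 0.46 and 0.53 for Clu 1437689_x_at, and 0.47 and 0.54 for Clu 1418626_a_at, since each adds 1 constant to every difference. Quantile normalisation turned App 1427442_a_at to -0.23, Aplp1 1435857_s_at to -0.23, Aplp2 1423739_x_at to -0.41 and Clu 1418626_a_at to 0.40, the ratios of 2 probe sets of Aplp2 to 0.19 and of Clu to 0.041, and the ratios App to Aplp2, Aplp1 to Aplp2 and App to Mapt to -0.0090, -0.0051 and -0.12. It gave 2 correlations past the threshold, App and Aplp2 beside Apoe and Clu, and App and Psen2 at r = 0.0014. Without centring App and Aplp1 had r = -0.038. Both of these settings of the correlations were added after the data were seen. With the mean of a gene's probe sets the App to Bace1 ratio was -0.014. Array weights called 3 of 48 pathway genes, Gsk3b, Itm2b and Aph1a, where they called 9.81% of all probe sets tested.

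With 1 array left out, pathway genes called ran from 0 to 1 (Adam17, without High Exploration replicate 5) and correlations past the threshold from 0 to 1. Differences ran from -0.042 to 0.33 for Aplp2 1423739_x_at, -0.19 to 0.59 for App 1438373_at, -0.37 to 0.18 for Mapt 1455028_at, -0.39 to 0.15 for Clu 1418626_a_at, -0.48 to 0.011 for Clu 1437458_x_at and -0.36 to 0.23 for Clu 1437689_x_at. The App to Aplp1 ratio ran from -0.30 to 0.025, and r from -0.27 to 0.13 for Aplp1 and Aplp2 and from -0.067 to 0.67 for App and Aplp2. No paired analysis was possible because the labels give no replicate number that the groups share.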
